A study of Mus musculus with 8 samples.

Results

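Bone morphogenetic proteins (BMPs) are secreted ligands that bind serine/threonine kinase receptors on the cell surface, which then activate the Smad1, Smad5 and Smad9 transcription factors. Extracellular antagonists such as gremlin, noggin and chordin bind the ligands and keep them from their receptors, and follistatin does so mainly for activins. The activated Smads switch on the Id genes, whose proteins bind bHLH transcription factors and hold cells from differentiating, and the inhibitory Smads, which feed back on the pathway. In the heart, BMP ligands take part in the forming of cardiomyocytes, valves and epicardium and in the response of fibroblasts to injury.

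The 9 genes described here were chosen by name from the 54532 genes of the expression table, by a rule that uses no values, though with earlier results of these data known. They are the ligands *Bmp2*, *Bmp4* and *Bmp6*, the antagonists *Grem1* (gremlin 1) and *Fst* (follistatin), and the target genes *Id1*, *Id2*, *Id3* and *Smad6*. All 9 of 9 were in the table and passed the filter on low values, as did 15708 genes in total. Other genes of the pathway are given from lists written by role.

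The cells were MICFs, cardiac fibroblasts isolated from the hearts of adult C57BL/6 mice with myocardial infarction (MI). All of them were infected with tetracycline-inducible lentiviruses for MGT (*Mef2c*, *Gata4* and *Tbx5* in 1 construct), Myocd, Sall4 and eGFP, and the genotype label of all samples is MGTMyoS overexpression. *In vivo* samples were eGFP+ cells sorted from MI hearts into which the cells had been transplanted. The mice received doxycycline together with TMM, the immunosuppressants tacrolimus, methylprednisolone and mycophenolate mofetil. *In vitro* samples were eGFP+ cells sorted from culture with doxycycline, serum, the TGF-β/activin type I receptor inhibitor SB431542 and the JAK inhibitor baricitinib. The agents differ between heart and culture, so their part and that of the surroundings cannot be told apart. Cells were sorted at 1 week and 2 weeks (Days 7 and 14), with 2 libraries in each of the 4 groups. Which animals or wells each library came from is not stated, so p-values measure the spread between these libraries, which may be technical. Expression is given as FPKM, which sets the fragments of a gene against its length and the depth of the library. Groups were compared with limma on log2(FPKM + 0.1), and a gene was called at a Benjamini-Hochberg adjusted p under 0.01 with a log2 fold change beyond 1 in size. Adjusted p-values below are from this fit across all 15708 genes.

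Between 12304242 and 14546904 fragments per library fell on genes. The deposited FPKM hold a scaling between libraries that differs between heart and culture, and without it the 15708 tested genes had a median log2 difference (*in vivo* minus *in vitro*) of -0.34 at 1 week and -0.33 at 2 weeks, in place of -0.0058 and -0.0034. Values of heart against culture below are relative to a median near 0 and would lie lower by about these amounts. Markers of several cell types were present. The summed FPKM of 12 fibroblast markers was 11104 to 14110 *in vivo* and 2504 to 3747 *in vitro*. That of 10 macrophage markers was 1937 to 3078 *in vivo* and 4845 to 5943 *in vitro*. *Lyz2* alone was at 1331 to 1453 FPKM *in vivo* and 3574 to 4014 *in vitro* at 1 week. At 1 week limma called 1 macrophage marker higher in the heart (*Fcgr1*) and 1 lower (*Lyz2*), and at 2 weeks 0 and 6. Of the fibroblast markers, 6 were called higher at 1 week and 7 at 2 weeks, and 0 lower. Over all tested genes, 7.79% were called higher and 5.07% lower at 1 week, and 9.02% and 8.05% at 2 weeks. The sum of 6 lymphocyte markers was at most 1.66 in any library. In such bulk samples, fewer cells of a type and less RNA per cell cannot be told apart.

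Promoter sequences of *Id2*, *Id3* and *Smad6* are shown because the results below turn on these targets and because their promoters held letters that Smad proteins are known to bind. The sequences are from RefSeq on GRCm38.p6, 5′ to 3′ on the strand of the gene, from 250 bases before the transcript start that the RefSeq table uses to 50 after it. For *Id2* and *Id3* that start lies inside the gene as the expression table gives it, so their windows are also inside it, and offsets below are counted from the RefSeq start. Of the 9 genes, 6 were matched in the promoter table (*Bmp4*, *Bmp6*, *Grem1*, *Id2*, *Id3* and *Smad6*). Capitals mark GGCGCC, a GC-rich element for Smad1 and Smad5, CAGAC (or GTCTG, the same on the other strand), the short Smad-binding element, and GTCTAGAC, its palindrome, which holds no CAGAC on either strand. The palindrome was added to the search after the sequence had been read.
*Id2* (chr12:25096043-25096342, minus strand): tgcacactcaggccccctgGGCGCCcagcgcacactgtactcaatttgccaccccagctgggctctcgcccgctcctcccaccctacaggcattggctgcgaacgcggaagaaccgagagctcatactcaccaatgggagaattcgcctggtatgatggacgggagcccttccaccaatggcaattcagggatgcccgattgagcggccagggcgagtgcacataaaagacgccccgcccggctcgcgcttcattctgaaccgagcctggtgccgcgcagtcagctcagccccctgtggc
*Id3* (chr4:136143572-136143871, plus strand): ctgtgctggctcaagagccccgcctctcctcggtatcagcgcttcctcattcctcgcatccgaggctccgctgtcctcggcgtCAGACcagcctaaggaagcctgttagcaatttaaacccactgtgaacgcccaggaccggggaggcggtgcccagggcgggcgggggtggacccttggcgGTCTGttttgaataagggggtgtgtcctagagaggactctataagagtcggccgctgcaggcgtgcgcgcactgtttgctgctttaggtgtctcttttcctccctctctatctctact
*Smad6* (chr9:64022010-64022309, minus strand): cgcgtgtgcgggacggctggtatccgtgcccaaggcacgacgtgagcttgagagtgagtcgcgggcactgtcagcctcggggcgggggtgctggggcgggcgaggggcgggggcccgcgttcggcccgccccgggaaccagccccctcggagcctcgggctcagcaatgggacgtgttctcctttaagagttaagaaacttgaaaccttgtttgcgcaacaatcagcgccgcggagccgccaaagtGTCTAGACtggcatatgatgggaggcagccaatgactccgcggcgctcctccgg

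The *Id2* promoter held 1 GGCGCC, whose first base lay 231 bases before the RefSeq start. The *Id3* promoter held 2 copies of the short element, at 167 and 68 bases before the RefSeq start. In the *Smad6* promoter the palindrome began 4 bases before it. Among all 32851 promoters of the table, searched on both strands, 11.9% held GGCGCC, 49.6% held CAGAC and 0.213% held GTCTAGAC. The short element is therefore a common string. *Bmp6* and *Grem1* also held it, and *Grem1* held GGCGCC, while the *Bmp4* window held none of the 3 strings.

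The first question was how the BMP ligands of the same infected cells differed between the heart and culture. In the deposited FPKM *Bmp2* was lower in the heart at both weeks and *Bmp4* was lower at 1 week alone. *Bmp6* was near its culture level at 1 week and above it at 2 weeks. Without the scaling between libraries *Bmp4* was also lower at 2 weeks and *Bmp6* was lower at 1 week, with values given below. Thus each of the 3 ligands had its own course in heart and culture.

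*Bmp2* encodes a ligand that drives cardiac commitment of mesoderm and is an osteogenic factor. Its gene lies at chr2:133552159-133562885 on the plus strand of mm10. Its FPKM was 5.45 and 4.62 *in vivo* and 9.04 and 12.1 *in vitro* at 1 week. At 2 weeks it was 3.86 and 4.46 *in vivo* and 40.6 and 45.6 *in vitro*. The *in vitro* libraries of 2 weeks were far above the other 6, and heart and culture did not overlap at either week. Heart minus culture, the log2 fold change was -1.05 (SE 0.16, adjusted p = 0.00211) at 1 week and -3.34 (SE 0.16, adjusted p = 9.04e-06) at 2 weeks, where the mean FPKM was 10.4-fold lower in the heart. The difference at 1 week lost its call without *in vivo* replicate 1 (adjusted p = 0.0106), *in vivo* replicate 2 (adjusted p = 0.0212) or *in vitro* replicate 2 (adjusted p = 0.0114), with only the 4 libraries of that week in the fit (adjusted p = 0.0158) and with a pseudocount of 1 (log2 fold change -0.93). In culture *Bmp2* rose 4.07-fold from 1 week to 2 weeks (log2 fold change 2.03, 95% confidence interval 1.65 to 2.41, adjusted p = 5.12e-04). In the heart its change over the same time was -0.27 (95% confidence interval -0.65 to 0.11, adjusted p = 0.302).

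*Bmp4* encodes a ligand of mesoderm and of the developing outflow tract and valves (chr14:46383520-46390669, minus strand). It was at 8.28 and 7.34 FPKM *in vivo* and at 19.1 and 18.4 *in vitro* at 1 week, and at 18.0 and 19.2 *in vivo* and 20.04 and 18.9 *in vitro* at 2 weeks. The 2 heart libraries of 1 week stood below the other 6, which lay within 18.0 to 20.04. At 1 week the log2 fold change was -1.26 (SE 0.080, adjusted p = 4.02e-05), which is 2.40-fold lower in the heart. At 2 weeks it was -0.07 with a 95% confidence interval of -0.26 to 0.12 (adjusted p = 0.526), and the libraries of heart and culture overlapped. Without the scaling between libraries the value at 2 weeks was -0.40 (adjusted p = 0.00972). *Bmp4* rose 2.38-fold in the heart between the weeks (log2 fold change 1.24, adjusted p = 6.87e-04). In culture its change was 0.05 (adjusted p = 0.661). An antisense gene, Gm15222, shares 1764 bases with *Bmp4* and was at 0.201 to 1.11 FPKM. Whether counting used strand is not stated, so its reads cannot be told from those of *Bmp4*.

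*Bmp6* encodes a ligand known for its part in iron balance through hepcidin and for its production by endothelial and other stromal cells (chr13:38345107-38500302, plus strand). At 1 week it was at 14.3 and 16.2 FPKM *in vivo* and 17.9 and 17.4 *in vitro*, and at 2 weeks at 33.4 and 30.9 *in vivo* and 16.7 and 16.8 *in vitro*. The heart libraries of 2 weeks were above all others. The log2 fold change at 2 weeks was 0.94 (SE 0.078, adjusted p = 1.00e-04), or 1.92-fold, which passed the p threshold and lay just under the fold threshold. At 1 week it was -0.21 (adjusted p = 0.0667). Without the scaling between libraries the values were -0.55 (adjusted p = 6.55e-04) at 1 week and 0.61 (adjusted p = 3.40e-04) at 2 weeks. In the heart *Bmp6* rose 2.11-fold between the weeks (log2 fold change 1.07, adjusted p = 8.39e-04), and in culture its change was -0.08 (95% confidence interval -0.26 to 0.11, adjusted p = 0.518). *Txndc5*, on the opposite strand at 71.6 to 141 FPKM, shares 224 bases with *Bmp6*, and reads there cannot be told apart.

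**Figure D1:**
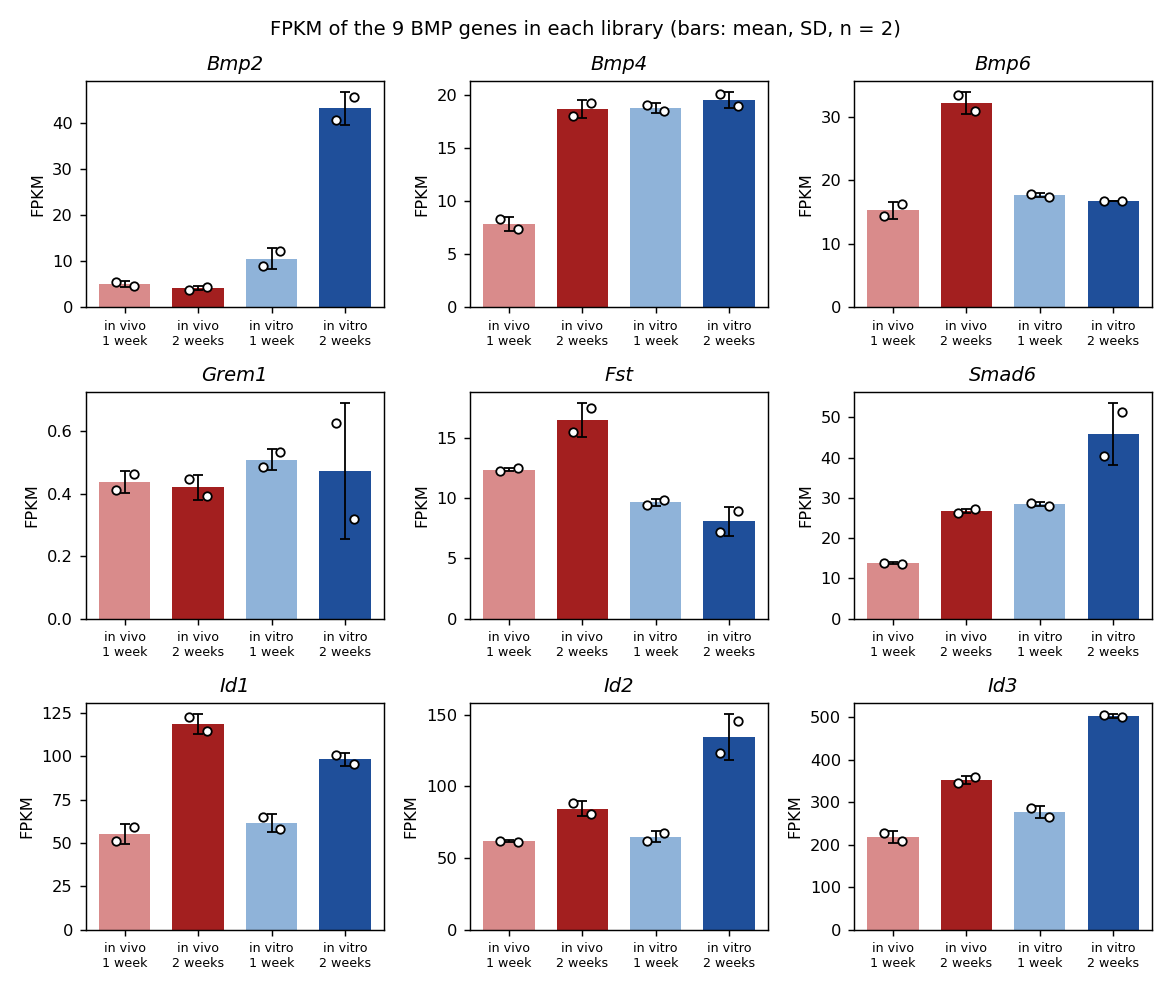
FPKM of each of the 9 genes, with a panel per gene and the 4 groups on the x axis. Bars are means of 2 libraries, error bars are the SD and points are the libraries. *Bmp2* stood out in culture at 2 weeks (43.1 ± 3.56) and *Bmp6* in the heart at 2 weeks (32.1 ± 1.76), while *Bmp4* was low in the heart at 1 week (7.81 ± 0.666).

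The difference between heart and culture itself differed between the weeks for all 3 ligands. This contrast, 2 weeks minus 1 week of the log2 fold change, was -2.30 for *Bmp2* (SE 0.23, adjusted p = 0.00366), 1.19 for *Bmp4* (SE 0.11, adjusted p = 0.00365) and 1.15 for *Bmp6* (SE 0.11, adjusted p = 0.00366). Of all tested genes, 0.573% were called higher and 1.15% lower in this contrast, and 2.47% passed the adjusted p alone, against 3 of the 9 genes. The remaining 6 genes did not pass. All 3 calls were lost with a replicate block (adjusted p = 0.0109 to 0.0114) and with no intensity trend (adjusted p = 0.0156 to 0.0167). When any library was left out, 0 of the 9 genes were called, with adjusted p-values of 0.0105 to 0.0289 for the 3 ligands, and their directions held.

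Among the 15 BMP ligand genes of the list, 6 passed the filter. *Gdf6*, a ligand of joint and skeletal patterning, was at 24.7 and 27.2 FPKM *in vivo* and 25.2 and 23.8 *in vitro* at 1 week. It was at 16.3 and 16.4 *in vivo* and 11.4 and 13.8 *in vitro* at 2 weeks, and did not pass in either comparison of heart with culture (log2 fold change 0.08 and 0.38, with the first at -0.26 without the scaling). *Bmp3*, a ligand that opposes other BMPs in bone, was called lower in the heart each week (log2 fold change -2.83 and -1.51), at group means of 0.384 and 1.16 FPKM *in vivo* and 3.29 and 3.46 *in vitro*. None of the 6 tested ligand genes was called higher in the heart at either week (0 of 6). Of the same 6, limma called 3 lower at 1 week and 2 at 2 weeks. Among all tested genes 7.79% were called higher and 5.07% lower at 1 week, and the shares at 2 weeks were 9.02% and 8.05%. The median log2 fold change of the 6 ligand genes went from -0.63 to -0.03. Without the scaling between libraries it was -0.97 and -0.35.

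FPKM is per length, so ligand levels could be summed. The summed FPKM of the 15 ligand genes was 54.3 to 57.2 in the heart at 1 week and 75.1 to 77.0 at 2 weeks, and 75.6 to 76.0 and 95.97 to 101.4 in culture. *Gdf6* led in both groups of 1 week and other genes led at 2 weeks. In the heart *Gdf6* made up 45.4% to 47.6% of the sum at 1 week, and *Bmp6* made up 40.2% to 44.5% at 2 weeks. In culture *Gdf6* led at 1 week with 31.4% to 33.3%, and *Bmp2* led at 2 weeks with 42.3% to 45.0%. At 2 weeks *Bmp2* made up 5.14% to 5.79% of the sum in the heart. *Bmp7* and *Bmp10*, ligands known from the heart, were minor, with *Bmp10* listed at 0 in all libraries and *Bmp7* at no more than 0.205% of the sum in any of them.

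**Figure D2:**
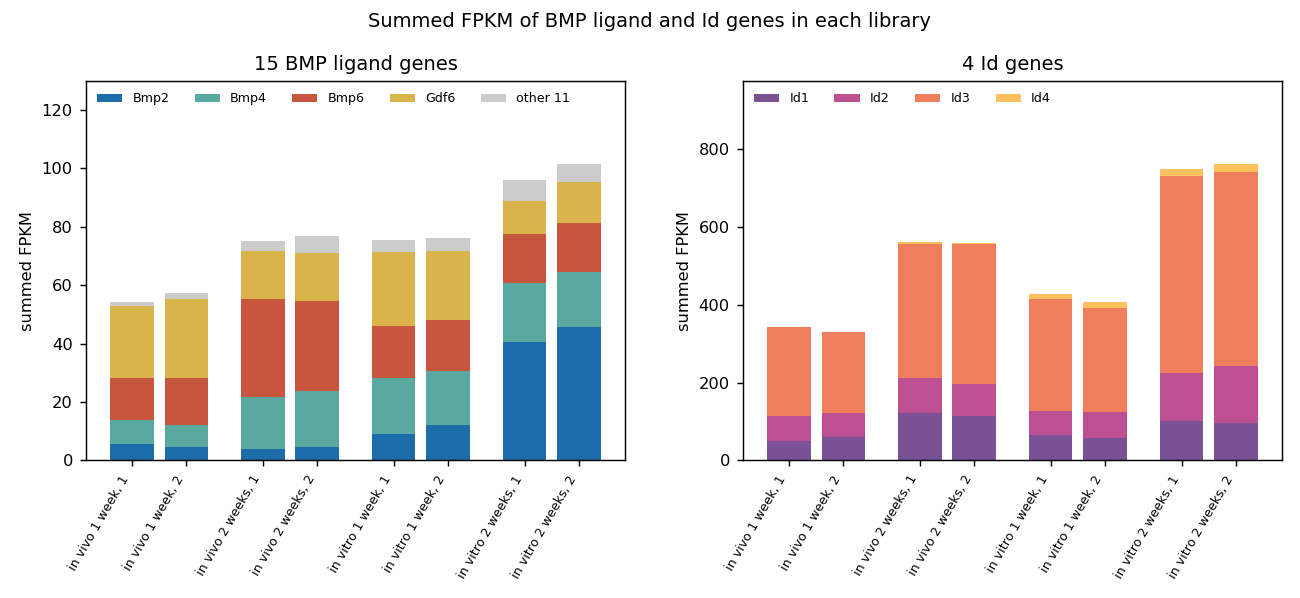
Summed FPKM of 15 BMP ligand genes (left) and the 4 Id genes (right) in each of the 8 libraries on the x axis, with stacked bars split by gene. The ligand sum was led by *Gdf6* at 1 week, by *Bmp6* in the heart at 2 weeks and by *Bmp2* in culture at 2 weeks, while *Id3* made up 61.8% to 67.6% of the Id sum throughout.

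Markers of other cell types also differed between the groups. The summed FPKM of 8 cardiomyocyte markers was 16.3 and 19.3 in the heart at 1 week and 26.9 and 48.0 at 2 weeks, against 166 and 188 and then 1224 and 1032 in culture. That of 6 mesothelial markers was 13.5 to 15.3 and 32.1 in the heart, against 189 to 197 and 422 to 436 in culture. Both sums, like *Bmp2*, were highest in culture at 2 weeks. In the heart both were higher at 2 weeks than at 1 week, while the means of *Bmp2* were 5.04 FPKM at 1 week and 4.16 at 2 weeks. The sum of 7 mural cell markers was 115 to 126 and then 104 to 121 in the heart, against 92.3 to 105 and then 137 to 148 in culture. These markers went both ways, with 5 called higher and 2 lower in the heart at 1 week, and 2 and 3 at 2 weeks. Over all tested genes, 7.79% were called higher and 5.07% lower at 1 week, and 9.02% and 8.05% at 2 weeks. The sum of 10 endothelial markers was 102 to 116 in the heart at 1 week and 98.6 to 108 at 2 weeks. In culture it was 27.6 to 28.6 and then 63.6 to 74.4. The part of these cells in the ligand results was not tested.

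The antagonists *Grem1* and *Fst* were at very different levels. *Grem1*, whose protein binds BMP2 and BMP4 (chr2:113746164-113758646, minus strand), was at 0.412 and 0.463 FPKM *in vivo* and 0.485 and 0.533 *in vitro* at 1 week. At 2 weeks it was at 0.449 and 0.393 *in vivo* and 0.627 and 0.319 *in vitro*. These values rest on 18 to 36 fragments per library and put *Grem1* between the 8.1th and 12.4th percentile of tested genes. No difference was detectable at this depth. The log2 fold change was -0.18 (95% confidence interval -1.01 to 0.65, adjusted p = 0.711) at 1 week and -0.09 (-0.92 to 0.75, adjusted p = 0.864) at 2 weeks, and the sign at 2 weeks turned without *in vitro* replicate 1 (0.31).

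*Fst*, whose protein binds activins tightly and some BMPs more weakly (chr13:114452290-114458951, minus strand), was at 12.3 and 12.5 FPKM *in vivo* and 9.44 and 9.86 *in vitro* at 1 week. At 2 weeks it was at 15.5 and 17.5 *in vivo* and 7.22 and 8.93 *in vitro*. In the deposited FPKM the heart libraries were above the culture libraries at both weeks. Without the scaling between libraries the log2 fold change at 1 week was 0.017 (adjusted p = 0.911). At 2 weeks the log2 fold change was 1.03 (SE 0.11, adjusted p = 3.50e-04), a 2.05-fold higher mean, and at 1 week it was 0.36 (adjusted p = 0.0397), which was not called. The call at 2 weeks lay close to the fold threshold. It was lost without *in vivo* replicate 2 (0.94) or *in vitro* replicate 1 (0.88), with a pseudocount of 1 (0.95) and without the scaling between libraries (0.70, adjusted p = 0.00157). From 1 week to 2 weeks the log2 fold change of *Fst* was 0.41 in the heart (adjusted p = 0.0514) and -0.26 in culture (adjusted p = 0.134).

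**Figure D3:**
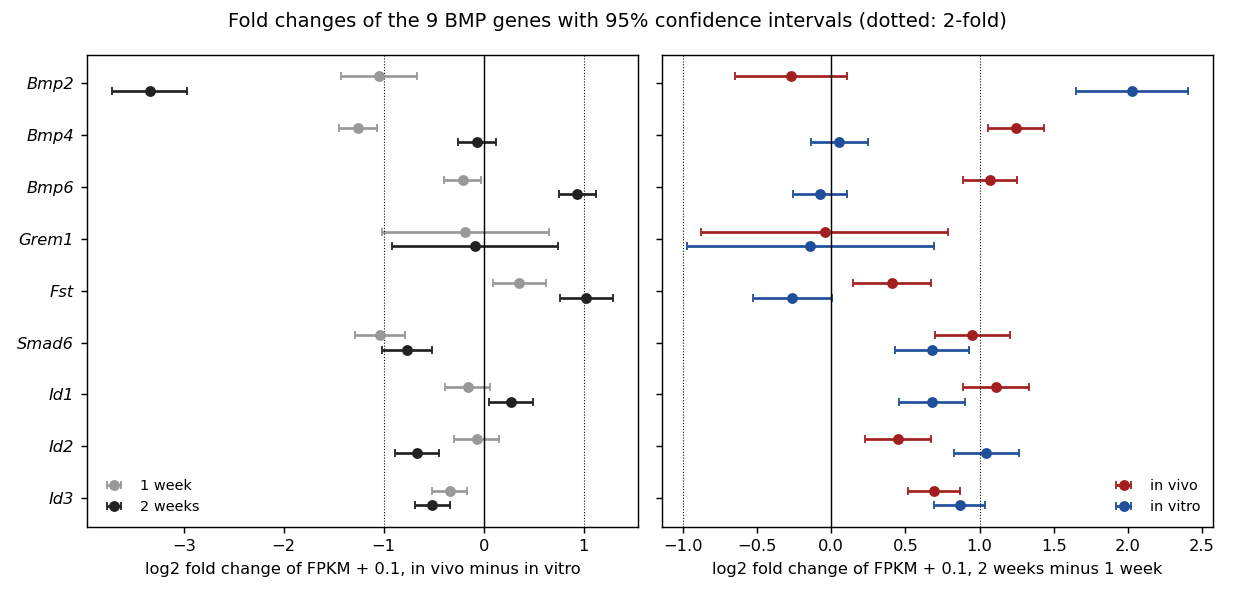
Log2 fold changes of FPKM + 0.1 for the 9 genes with 95% confidence intervals from limma, *in vivo* minus *in vitro* at each week (left) and 2 weeks minus 1 week in heart and culture (right). Dotted lines mark a 2-fold difference. *Bmp2* had the lowest value, -3.34 at 2 weeks, and the Id genes and *Smad6* lay above 0 in both time comparisons.

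Other secreted antagonists and modulators were often higher in the heart. Of 21 genes on this list 16 were tested. The heart had 6 of them called higher and 1 called lower at 1 week. At 2 weeks 8 were called higher, *Fst* among them, and 0 lower. The median of their log2 fold changes was 0.75, then 1.06. The shares over all tested genes were 7.79% higher at 1 week and 9.02% at 2 weeks. In the fit on FPKM without the library scaling, 14 genes of the list were tested. Of these, 4 were called higher at 1 week and 6 at 2 weeks, and 1 was called lower each time. Over all genes that fit called 906 higher and 1562 lower at 1 week, and 1029 and 2097 at 2 weeks. *Chrd* (chordin), which binds BMP2 and BMP4, was at 3.75 and 4.19 FPKM *in vivo* and 0.737 and 0.578 *in vitro* at 1 week, and at 6.99 and 6.76 *in vivo* and 0.705 and 0.917 *in vitro* at 2 weeks. The log2 fold changes of *Chrd* were 2.43 (adjusted p = 6.61e-05) and then 2.95 (adjusted p = 2.25e-05). *Bmp1*, which despite its name encodes a protease that cuts chordin and procollagens, was 3.92-fold and 3.80-fold higher in the heart (means 117 and 100.4 FPKM *in vivo*, 29.9 and 26.4 *in vitro*).

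*Bmper*, a chordin-like protein of vessels that can inhibit or aid BMP4, was 6.69-fold higher in the heart at 1 week and 10.6-fold at 2 weeks, from means of 35.3 and 26.8 FPKM *in vivo* and 5.28 and 2.52 *in vitro*. *Nbl1*, a gremlin relative, was at a mean of 107.6 FPKM and then 221 *in vivo*, and at 51.4 and then 73.0 *in vitro* (log2 fold change 1.07 and 1.60, both called, the first at 0.73 and not called without the scaling). *Fstl3*, a follistatin relative that binds activins and myostatin, had log2 fold changes of 1.13 and 2.25 (0.80 and 1.93 without the scaling), and its difference between the weeks was called too (1.12, adjusted p = 0.00627). In the other direction, *Crim1*, a membrane protein that tethers BMPs, was lower in the heart at 1 week (-1.58, called) and had a value of -0.76 at 2 weeks. *Twsg1*, which aids chordin, was expressed at means of 51.0 to 74.7 FPKM with log2 fold changes of 0.10 and -0.10 (-0.24 and -0.43 without the scaling). Summed fibroblast markers were also higher in the heart, as given above with the number called. *Col1a1* alone had means of 4420 FPKM *in vivo* and 857 *in vitro* at 1 week. *Thy1*, on the same list, was lower in the heart at that week, at 24.2 and 22.7 *in vivo* and 42.2 and 36.7 *in vitro*. The part of these markers in the antagonist values was not tested.

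The activin branch is of use beside *Fst*. *Inhba*, which encodes the subunit of activin A, was at 17.8 and 15.9 FPKM *in vivo* and 10.3 and 9.11 *in vitro* at 1 week. At 2 weeks it was at 11.05 and 10.4 *in vivo* and 2.83 and 2.98 *in vitro*. The log2 fold change went from 0.79 to 1.85 (adjusted p = 1.28e-05), and in culture it fell between the weeks by 1.70 on the log2 scale. *Fst*, *Fstl3* and *Inhba* were thus all called higher in the heart at 2 weeks. Of the 12 genes of the branch, 9 were tested, with 1 called higher at 1 week, 3 at 2 weeks and 0 lower at either (all tested genes: 7.79% and 9.02% higher). Without the scaling between libraries, 0 were called higher and 1 lower at 1 week (*Acvr2a*, -1.03), and 2 higher and 1 lower at 2 weeks (*Inha*, -1.80), both named after their values were seen. The median of the list was then 0.017 and 0.035, in place of 0.36 at each week. That fit called 906 of all genes higher and 1562 lower at 1 week, and 1029 and 2097 at 2 weeks. *Tgfbr3*, a co-receptor with a mean of 14.7 FPKM in the heart at 2 weeks, had log2 fold changes of -0.04 and 0.40.

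Receptors of the pathway were present in every group. *Acvrl1* (ALK1), the type I receptor through which endothelial cells respond to BMP9 and BMP10, was at 46.8 and 52.1 FPKM *in vivo* and 18.3 and 18.9 *in vitro* at 1 week. It was at 63.6 and 59.6 *in vivo* and 13.8 and 13.7 *in vitro* at 2 weeks. The log2 fold change was 1.40 (adjusted p = 1.45e-05) and 2.15 (adjusted p = 2.04e-06). *Acvr1* (ALK2), a type I receptor for BMP6 and BMP7, was also called higher at both weeks (1.24 and 1.25), and fell short of the fold threshold without the scaling between libraries (0.90 and 0.92). *Eng* (endoglin, a co-receptor of ALK1; 0.93 and 0.73), *Neo1* (neogenin, a receptor for repulsive guidance molecules; 0.86 and 0.95) and *Bmpr2* (a type II receptor; 0.65 and 0.76) passed the adjusted p at both weeks without reaching the fold threshold. *Bmpr1a* (ALK3), a type I receptor for BMP2 and BMP4, was at means of 24.8 to 32.9 FPKM with log2 fold changes of -0.32 and -0.20. Of 9 tested receptor genes, 2 were called higher and 0 lower at each week, where 7.79% and 9.02% of all tested genes were called higher. Their median was 0.65 and 0.73 on the log2 scale. Without the scaling between libraries 1 was called higher each time and 1 lower at 1 week (*Acvr2a*), and the median was 0.31 and 0.39. Calls over all genes without it were 906 higher and 1562 lower at 1 week, and 1029 and 2097 at 2 weeks. The sum of endothelial markers was higher in the heart at both weeks, as given above. The part of these markers in *Acvrl1* and *Eng* was not tested.

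The intracellular Smads differed less. *Smad4*, the shared partner, had log2 fold changes of 0.14 and 0.36. *Smad5*, a BMP Smad, had 0.34 and 0.16, while *Smad2* and *Smad3*, the TGF-β and activin Smads, had 0.06 and 0.25 and -0.18 and 0.09. *Smad7*, the inhibitory Smad of the TGF-β and BMP branches, was at means of 67.4 and 59.0 FPKM *in vivo* and 39.8 and 49.4 *in vitro* (log2 fold change 0.76 and 0.26). The ubiquitin ligase genes *Smurf1* and *Smurf2* had log2 fold changes of 0.34 and 0.61 and of 0.57 and 1.07, and *Smurf2* was called at 2 weeks. Without the scaling between libraries the sign turned for 2 of the 10 genes of this list at 1 week and 4 at 2 weeks, *Smad7* (-0.076) among the latter, and the call of *Smurf2* was lost (0.74). Of the 10 genes of this list, all of them tested, 0 were called higher and 2 lower at 1 week, *Smad6* and *Smad9*. *Smad9*, a BMP Smad named here after its values were seen, had a log2 fold change of -1.46 at 1 week at means of 0.399 FPKM *in vivo* and 1.28 *in vitro*. At 2 weeks 1 was called higher and 0 lower. Of all tested genes, 7.79% were called higher and 5.07% lower at 1 week, and 9.02% and 8.05% at 2 weeks.

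**Figure D4:**
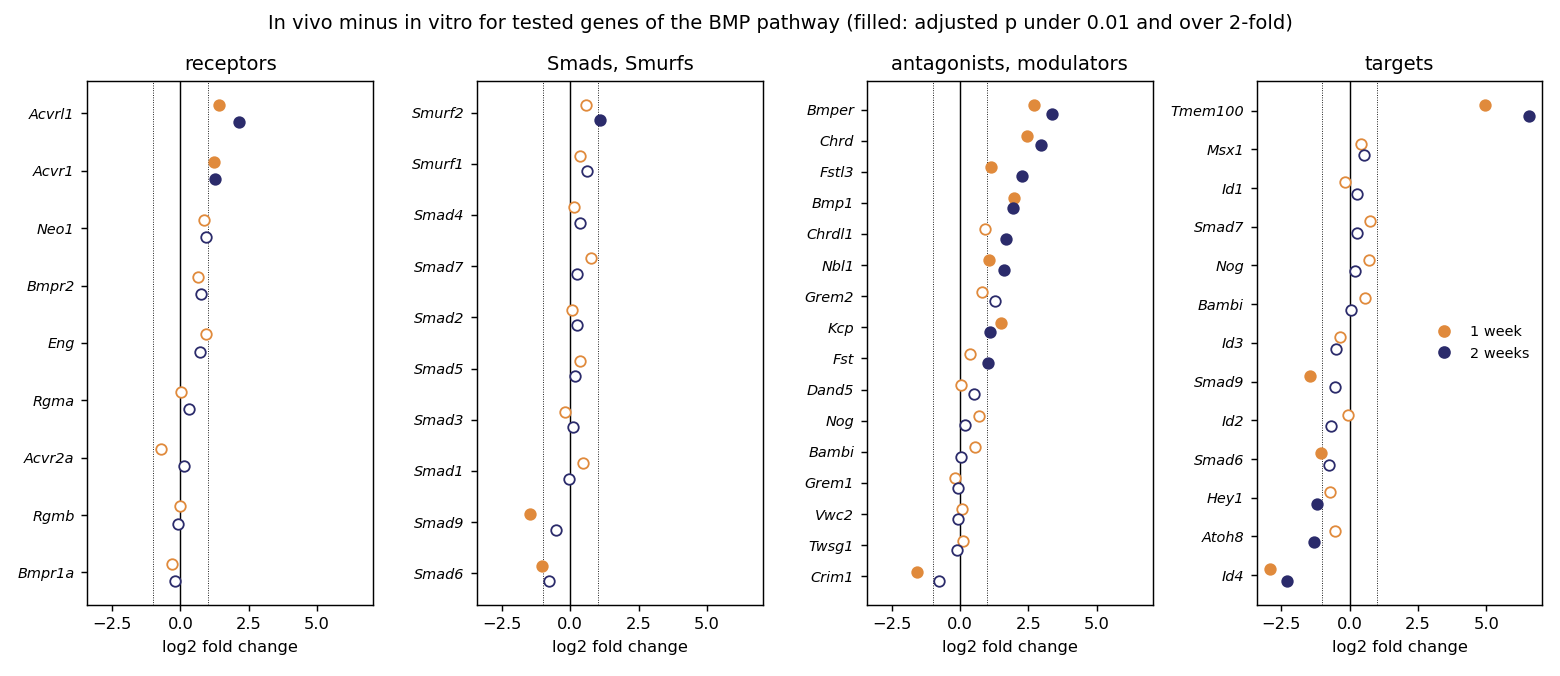
Log2 fold changes of FPKM + 0.1, *in vivo* minus *in vitro*, for the tested genes of 4 lists of the BMP pathway at 1 week (orange) and 2 weeks (dark blue). Filled points were called, and dotted lines mark a 2-fold difference. Most called antagonists and modulators lay to the right (6 of 7 at 1 week), and *Tmem100* and *Id4* were the outermost targets.

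The targets were read next, since their transcripts follow BMP-Smad activity in many cells. *Smad6* encodes an inhibitory Smad that acts mainly on the BMP branch (chr9:63953076-64022059, minus strand). It was at 13.9 and 13.7 FPKM *in vivo* and 28.8 and 28.1 *in vitro* at 1 week, and at 26.3 and 27.1 *in vivo* and 40.4 and 51.3 *in vitro* at 2 weeks. The heart libraries were below the culture libraries of the same week, and in the deposited FPKM the heart at 2 weeks was near culture at 1 week. The log2 fold change was -1.04 (SE 0.11, adjusted p = 3.33e-04) at 1 week, where it was called, and -0.77 (adjusted p = 0.00105) at 2 weeks. With a pseudocount of 1 the first was -0.99, and without the scaling between libraries the second was -1.10 and was called. *Smad6* passed the adjusted p between the weeks in the heart (log2 fold change 0.95, adjusted p = 0.00272) and in culture (0.68, adjusted p = 0.00587).

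*Id1* encodes an inhibitor of bHLH factors that responds quickly to BMPs (chr2:152736251-152737410, plus strand). It was at 51.0 and 59.1 FPKM *in vivo* and 65.0 and 57.8 *in vitro* at 1 week, and at 123 and 115 *in vivo* and 100.8 and 95.6 *in vitro* at 2 weeks. In the deposited FPKM heart and culture overlapped at 1 week, and both were higher at 2 weeks. The rise in the heart was 2.16-fold (log2 fold change 1.11, 95% confidence interval 0.89 to 1.33, adjusted p = 0.00120). This call was lost with quantile normalization (0.94), without *in vivo* replicate 1 of 1 week (adjusted p = 0.0128) and with only the 4 heart libraries in the fit (adjusted p = 0.0352). In culture the log2 fold change between the weeks was 0.68 (adjusted p = 0.00378). Heart against culture gave -0.16 (adjusted p = 0.214) at 1 week and 0.27 (adjusted p = 0.0469) at 2 weeks. The latter was not called, and its sign turned without the scaling between libraries (-0.059). Without the scaling the value at 1 week was -0.50 (adjusted p = 0.00293).

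*Id2* (chr12:25093799-25097140, minus strand), an Id gene also known from lymphoid and myeloid cells, was at 62.3 and 61.4 FPKM *in vivo* and 62.2 and 67.7 *in vitro* at 1 week. At 2 weeks it was at 88.2 and 80.8 *in vivo* and 123 and 146 *in vitro*. In the deposited FPKM the groups overlapped at 1 week. They stood apart at 2 weeks, when culture was higher (log2 fold change -0.67, SE 0.093, adjusted p = 0.00112, under 2-fold). Without the scaling between libraries the value at 1 week was -0.41 (adjusted p = 0.00482). *Id2* rose 2.07-fold in culture between the weeks (log2 fold change 1.05, adjusted p = 8.26e-04). That call was lost without *in vitro* replicate 1 of 1 week (0.99) or replicate 2 of 2 weeks (0.93), without the scaling between libraries (0.995) and with quantile normalization (0.91). In the heart the value was 0.45 (adjusted p = 0.0222).

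*Id3* (chr4:136143497-136145755, plus strand) had the highest level per length of the 9 genes in every library and lay between the 98.9th and 99.6th percentile of tested genes. It was at 228 and 208 FPKM *in vivo* and 286 and 266 *in vitro* at 1 week, and at 346 and 359 *in vivo* and 506 and 500.0 *in vitro* at 2 weeks. In the deposited FPKM the order was heart at 1 week, culture at 1 week, heart at 2 weeks and culture at 2 weeks, with no overlap between neighbours. This order rests on the scaling between libraries. The log2 fold change between heart and culture was -0.34 (adjusted p = 0.00921) at 1 week and -0.51 (SE 0.073, adjusted p = 0.00120) at 2 weeks, both under the fold threshold. Without the scaling it was -0.68 and -0.84. Between the weeks it was 0.69 (adjusted p = 0.00229) in the heart and 0.87 (adjusted p = 6.78e-04) in culture.

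Taken as a family, the Id genes had a larger sum at 2 weeks than at 1 week and in culture than in the heart, and most of it was *Id3*. The sum does not stand for each gene. *Id1* at 2 weeks had a mean of 118.7 FPKM in the heart and 98.2 in culture, though its sign turned without the scaling between libraries. At 1 week *Id1* and *Id2* each overlapped between heart and culture in the deposited FPKM, and both were lower in the heart without the scaling. The summed FPKM of *Id1*, *Id2*, *Id3* and *Id4* was 331 to 343 in the heart and 406 to 428 in culture at 1 week, and 559 to 560.1 in the heart and 749 to 760.5 in culture at 2 weeks. *Id4*, which is no member of the 9, had the largest difference of the family. It was at 1.93 and 1.68 FPKM *in vivo* and 14.7 and 14.0 *in vitro* at 1 week, and at 3.31 and 4.33 *in vivo* and 18.7 and 19.0 *in vitro* at 2 weeks (log2 fold change -2.93 and -2.29, both called). Of the bHLH partners that Id proteins bind, *Tcf3* was at means of 17.4 to 20.4 FPKM with log2 fold changes of 0.21 and 0.22 (-0.13 and -0.11 without the scaling). Among the 3 partners tested, limma called 0 at either week. Over all tested genes, 7.79% were called higher and 5.07% lower at 1 week, and 9.02% and 8.05% at 2 weeks. Without the scaling the sign turned for 2 of the 3 partners at 1 week and for 1 at 2 weeks.

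Of 15 genes on the list of BMP-Smad targets, 13 were tested. At each week 1 was called higher and 3 were called lower in the heart, and the median log2 fold change was -0.16 and -0.51. Over all tested genes, 5.07% and 8.05% were called lower and 7.79% and 9.02% higher. Without the scaling between libraries 12 of the targets were tested, with 1 called higher and 4 lower each time and a median of -0.59 and -0.83. The fit without it called 906 of all genes higher and 1562 lower at 1 week, and 1029 and 2097 at 2 weeks. With the scaling these counts were 1224 and 796, and 1417 and 1265. The median of all genes without it was -0.34 and -0.33. The gene called higher at both weeks was *Tmem100*, a membrane protein gene known as a target of ALK1 signalling in endothelium. It was at 6.86 and 8.43 FPKM *in vivo* at 1 week and 20.005 and 25.1 at 2 weeks, and at no more than 0.205 in any culture library, from 2 to 5 fragments each. Its log2 fold change was 4.95 (SE 0.26) and 6.57 (SE 0.26). *Atoh8*, a bHLH factor gene, was at means of 14.0 and 11.4 FPKM *in vivo* and 20.2 and 28.3 *in vitro* (log2 fold change -0.53, then -1.31, which was called). *Hey1*, a target shared with Notch, was at 4.37 and 5.02 *in vivo* and 7.33 and 11.5 *in vitro* (-0.73, then -1.18, which was called). Endothelial markers also differed beside *Tmem100*, with 8 of 10 called higher in the heart at 1 week and 4 at 2 weeks and sums as given above. Their part in its values was not tested.

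In counts, 3 of the 9 genes were called lower in the heart at 1 week (*Bmp2*, *Bmp4* and *Smad6*) and 0 higher. At 2 weeks 1 was called lower (*Bmp2*) and 1 higher (*Fst*). By the same rule 5.07% of all tested genes were lower and 7.79% higher at 1 week, and 8.05% and 9.02% at 2 weeks. At any fold, 4 of the 9 passed the adjusted p at 1 week and 6 at 2 weeks, where 27.1% and 34.2% of all tested genes did. The median log2 fold change of the 9 was -0.21 and -0.09. Without the scaling between libraries 0 were called higher and 3 lower at 1 week, and 0 and 2 at 2 weeks (*Bmp2* and *Smad6*). Their median was then -0.55 and -0.40. That fit called 906 of all genes higher and 1562 lower at 1 week, and 1029 and 2097 at 2 weeks. In it *Bmp6*, *Id1* and *Id2* also passed the adjusted p at 1 week, and *Bmp4* at 2 weeks. Over time, 3 of the 9 were called higher at 2 weeks in the heart (*Bmp4*, *Bmp6* and *Id1*) and 0 lower, where 1.23% and 0.949% of all genes were. In culture 2 were called higher (*Bmp2* and *Id2*) and 0 lower, where 2.76% and 1.05% of all genes were. At any fold 5 of the 9 passed in the heart and 5 in culture, where 4.69% and 9.78% of all genes did, and in each case these included *Id1*, *Id3* and *Smad6*. The median log2 fold change over time was 0.69 in the heart and 0.68 in culture, beside -0.0033 and 0.016 for all genes. Without *in vivo* replicate 1 of 1 week, 0 of the 9 were called over time in the heart (adjusted p = 0.0101 for *Bmp4*, 0.0126 for *Bmp6* and 0.0128 for *Id1*). With only the 4 libraries compared in the fit, 0 of the 9 were called over time in the heart or in culture (adjusted p = 0.0176 for *Bmp2* in culture). The comparisons over time and those between heart and culture share libraries.

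Across the 8 libraries, which also share week and surroundings, the levels of some of these genes ran alike. Pearson's r of log2(FPKM + 0.1) was 0.94 for *Id2* and *Id3*, 0.91 for *Id3* and *Smad6*, 0.88 for *Smad6* and *Bmp4*, and -0.87 for *Fst* and *Bmp2*. The search for similar patterns took in 7109 other protein-coding genes whose mean was 5 FPKM or more. The pattern closest to *Bmp2* was that of *Scamp2* (r = 0.996), followed by *Des* (0.993) and *Mapkapk2* (0.991). The closest to *Bmp4* was *Ccl6* (0.983), to *Bmp6* *Lamb2* (0.984), to *Fst* *Rps6ka4* (0.989) and to *Smad6* *Htra1* (0.990). For *Id1* it was *Igfbp6* (0.988) and for *Id2* *Itm2b* (0.986). *Grem1*, at few fragments, had its closest pattern in *Phf21a* (0.927). With 8 libraries in 4 groups such values are reached by many genes, and they are given as descriptions.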

How the data were processed

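RNA of eGFP+ cells was sequenced in 8 libraries, 2 in each of 4 groups taken from the sample titles. The values used are the FPKM the authors deposited for 54532 genes, made by their sequencing provider. The submitters' processing notes name CASAVA, HISAT2 2.0.5 and mm10, and the counting tool and annotation are not given in the sources used here. The start and end of all 9 genes matched those in GENCODE vM21 of GRCm38. FPKM multiplied by gene length gave whole fragments (within 0.1) for 100% of values. Intervals cover counting error and the spread between these libraries only. Replicates differed by more than sampling noise (chi-square per gene 4.63 to 10.2).

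Genes that reached 0.5 FPKM in 2 or more libraries were fitted on log2(FPKM + 0.1) with limma 3.58.1 (intensity trend, all 8 libraries, 4 groups, two-sided) in R 4.3.3. Fold changes on this scale understate those of low genes. The authors used DESeq2, which needs counts. Their thresholds of 0.01 for p and 2 for the fold were kept, with p adjusted here. Tables and figures were made with Python 3.11.15 (pandas 2.3.3, numpy 2.4.6, matplotlib 3.10.9). The procedure was tested on simulated data.

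The 9 genes and all lists were chosen with earlier results of these data known. Named from each list were up to 4 genes called at both weeks in the same direction, with the largest mean change, and all with a mean of at least 10 FPKM in a group. Up to 3 genes were kept as most like each of the 9, and the result for *Id3* is not reported here. Same-numbered replicates did not deviate together (correlations across genes of -0.048 to -0.011), so no pairs were formed. The alternatives were other pseudocounts, filters, scalings and thresholds, voom on fragments, no trend, a replicate block, only the libraries compared and each library left out. Values of the pathway genes outside the 9 without the scaling between libraries were added after seeing the data.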

Additional observations from a re-analysis of the deposited data

Results flagged for a closer look

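The *in vivo* against *in vitro* log2 fold change differed between 1 week and 2 weeks for 3 of the 9 genes by limma's contrast of the differences. The change from 1 week to 2 weeks was -2.30 for *Bmp2*, 1.19 for *Bmp4* and 1.15 for *Bmp6*. For *Bmp2* culture moved and the heart was at 5.45, 4.62, 3.86 and 4.46 FPKM. For *Bmp4* and *Bmp6* the heart moved, while culture was at 18.4 to 20.04 and 16.7 to 17.9 FPKM. The signs held in all 18 alternatives that could be run, and the adjusted p over them was 1.03e-04 to 0.0289 for *Bmp2*, 2.44e-04 to 0.0227 for *Bmp4* and 9.73e-05 to 0.0230 for *Bmp6*.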

How the results depend on the processing

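For the difference between the weeks, 3 of the 9 genes were called, but 0 with a replicate block, 0 with no trend and 0 to 0 with 1 library left out. Over all genes 271 were called in it, against 72 with no filter on low values, 27 with a replicate block, 473 with voom on fragments, 71 with no trend, 677 at an adjusted p under 0.05 and 2 to 86 with 1 library left out. The replicate block moved no other count of calls by over 1.5 times. With a pseudocount of 1, 1 of the 9 was called at 1 week (3 before) and 1 at 2 weeks (2 before). With only the 4 libraries compared, which cannot give the difference between weeks, 1 was called at 2 weeks, 0 over time in the heart and 0 in culture, as were 0 of all genes over time in each. Leaving out 1 library gave 1 to 2 at 2 weeks, 0 to 3 over time in the heart and 1 to 2 in culture. Over time in culture, 1 was called without the scaling between libraries and 1 with quantile normalization. Over all genes, 342 were called over time in the heart (727 at an adjusted p under 0.05, 11 to 221 with 1 library left out) and 599 in culture (1003 and 198 to 555). Signs turned for *Id1* at 2 weeks without the scaling (-0.059) and *Bmp4* over time in culture with quantile normalization (-0.041). They also turned for *Grem1* with 1 library left out, at 2 weeks (-0.48 to 0.31), in the difference between weeks (-0.30 to 0.49), over time in the heart (-0.12 to 0.032, with 0.023 the other positive value) and over time in culture (-0.54 to 0.26). The cause was not tested. Without the scaling between libraries, 36.7% of called genes were higher in the heart at 1 week and 32.9% at 2 weeks, against 60.6% and 52.8% with it. *Grem1* was not tested at a minimum of 1 FPKM. Its depth, 18 to 36 fragments, limits what can be seen.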
